A study of Mus musculus with 8 samples.

Results

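The 10 genes described here encode 3 ligands of the vascular endothelial growth factor (VEGF) family (Vegfa, Vegfb and Pgf), 2 VEGF receptor tyrosine kinases (Kdr and Flt1), 2 neuropilin co-receptors (Nrp1 and Nrp2), 2 angiopoietins (Angpt1 and Angpt2) and the angiopoietin receptor Tek. They were found by symbol among the 48607 loci of the gene table, and where several loci carried a symbol, the locus with the most counts was taken. RNA-seq of poly(A) RNA from entire aortas was carried out in mice that all lacked apolipoprotein E and were all fed a Western diet for 12 weeks, a model of atherosclerosis. ApoE-/- mice were compared with their littermates that also lacked natriuretic peptide receptor C (NPRC, encoded by Npr3) to ask what NPRC does in the diseased vessel. The ApoE-/- mice of the study were males obtained at 8 weeks of age, and no age or sex was stated separately for the littermates compared here. NPRC-/-ApoE-/- mice carried in every cell a CRISPR frameshift in exon 1 of Npr3, made on a C57BL/6 background, so a difference cannot be assigned to a cell type.

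VEGFA signals in endothelial cells mainly through KDR, while FLT1 binds VEGFA, VEGFB and placental growth factor (PGF) tightly and can act as a decoy for VEGFA. Neuropilins bind VEGF and class 3 semaphorins and pass them on to signalling receptors. ANGPT1, made largely by mural and mesenchymal cells, activates TEK and stabilises the endothelium, while ANGPT2, stored by endothelial cells, acts as a context-dependent antagonist. In atherosclerosis these genes are known for their part in the growth of vasa vasorum and in endothelial permeability.

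The titles give ApoE-/- for 5 libraries, with the numbers 1 to 5, and NPRC-/-ApoE-/- for 3, with the numbers 1 to 3. The paper describes RNA-seq of aortas from 5 mice of each genotype, so fewer NPRC-/-ApoE-/- libraries were available here than it reports. A second label, the genotype entry, named the other genotype for ApoE-/- 4 and 5 and for NPRC-/-ApoE-/- 1 and 2, so 4 of the 8 libraries carried conflicting labels. Comparisons are therefore given by title and again by genotype entry, which also sets 5 ApoE-/- against 3 NPRC-/-ApoE-/- libraries. The total count was 62969165 to 86693276 per library. Npr3 itself did not separate either grouping: its level in FPKM (fragments counted per unit of transcript length and of mapped fragments) was 0.62 to 1.69 where the title was ApoE-/- and 1.13 to 1.39 where it was NPRC-/-ApoE-/-, with a log2 fold change of 0.10 by title and 0.16 by genotype entry. A frameshift need not lower the RNA, so this level decides neither label. Libraries are taken as separate mice, which the labels do not state, and p-values weigh a group difference against the variation between these libraries.

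Endothelial identity was checked with 12 other endothelial genes, Pecam1, Cdh5 and Vwf among them, and none was at 0 in any library. Their summed level lay between 104 and 115 FPKM for the title ApoE-/- and between 97.4 and 106 FPKM for NPRC-/-ApoE-/-. In edgeR's quasi-likelihood test, 0 of the 12 had an unadjusted p under 0.05 by either label. Of all 20506 loci tested, 13.6% did by title and 1.31% by genotype entry. Genes of 4 of the other 9 cell types listed moved with the title in more than 1 gene. The summed level of 10 macrophage genes lay between 715 and 2221 FPKM for the title ApoE-/- and between 344 and 1132 FPKM for NPRC-/-ApoE-/-, and 5 of the 10 passed at an unadjusted p under 0.05, all lower. Over all loci tested, 7.13% were lower and 6.51% higher at that p by title. Of 10 smooth muscle genes, 9 passed, all higher, with summed levels of 1566 to 2085 and 1925 to 3494 FPKM. All 7 fibroblast genes had negative log2 fold changes, 2 of them passed, and their summed level was 523 to 1344 and 293 to 713 FPKM. Neuron genes summed to 6.38 to 32.94 and 1.70 to 6.39 FPKM, with Th and Snap25 at 0 in a library each, and 3 of 3 tested were lower, although 2 of these had passed the filter through titled ApoE-/- libraries alone. By genotype entry, 0 genes of any of these lists passed, where 1.31% of all loci did. The summed levels overlapped, as for macrophage genes at 448 to 2109 and 344 to 2221 FPKM and for smooth muscle genes at 1566 to 2932 and 1593 to 3494 FPKM. In a whole aorta, fewer cells of a type and less RNA per cell cannot be told apart.

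Upstream sequence is shown for 3 receptor genes that the results below turn on: Nrp2, the member with the smallest p-value by title, Flt1, the only member that was higher at an unadjusted p under 0.05, and Kdr, the partner receptor of Flt1 for VEGFA, for which no difference was detected. Sequences are from RefSeq (build GRCm38.p6), run in the direction of transcription, and end before the first base of the gene in GENCODE M21. The assembled Flt1 locus that was counted began further upstream, at 147726589, so the sequence shown for Flt1 lies inside that locus. Capitals mark GGGCGG or its complement CCGCCC, the core of the GC box that SP1 family factors bind.
Nrp2 (chr1:62703067-62703284, plus strand): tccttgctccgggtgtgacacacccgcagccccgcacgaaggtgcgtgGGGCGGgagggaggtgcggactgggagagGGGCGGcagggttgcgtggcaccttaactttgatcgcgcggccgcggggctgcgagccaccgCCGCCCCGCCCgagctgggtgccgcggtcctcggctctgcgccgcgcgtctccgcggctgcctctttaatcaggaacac
Flt1 (chr5:147726012-147726261, minus strand): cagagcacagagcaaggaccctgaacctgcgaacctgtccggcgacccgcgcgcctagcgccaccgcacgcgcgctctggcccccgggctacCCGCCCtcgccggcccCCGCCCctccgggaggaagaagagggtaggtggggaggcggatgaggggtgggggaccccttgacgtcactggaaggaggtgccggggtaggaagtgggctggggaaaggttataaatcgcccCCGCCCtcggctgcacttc
Kdr (chr5:75978459-75978705, minus strand): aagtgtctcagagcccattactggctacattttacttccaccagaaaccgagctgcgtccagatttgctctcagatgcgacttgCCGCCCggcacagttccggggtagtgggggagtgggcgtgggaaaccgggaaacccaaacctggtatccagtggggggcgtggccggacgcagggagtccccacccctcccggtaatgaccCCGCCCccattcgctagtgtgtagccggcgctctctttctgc
Nrp2 held 4 matches in 218 bases, 2 on each strand and 1 pair of them overlapping, Flt1 held 3 matches in 250 bases and Kdr 2 in 247 bases. Of the 32851 windows of the same length in the RefSeq table, 28.2%, 32.7% and 32.4%, respectively, held at least 1 match. A GC box is thus common before mouse genes, and matches stood before the gene that was lower, the one that was higher and the one with no detected difference.

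Per length, Nrp1 was the most abundant member, with a mean of 12.04 ± 2.32 FPKM (SD, n = 8 libraries). It was followed by Angpt2 (9.58 ± 1.95), Tek (9.28 ± 1.30), Vegfb (8.24 ± 1.40), Vegfa (5.83 ± 1.69), Nrp2 (4.51 ± 0.970), Kdr (4.32 ± 0.963), Flt1 (3.30 ± 0.704) and Pgf (1.06 ± 0.263). The ranges of neighbours in this order overlapped, except that every library had more Flt1 than the highest Pgf value. Angpt1 was the lowest member, at 0.308 ± 0.110 FPKM for the locus taken by the rule.

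**Figure D1:**
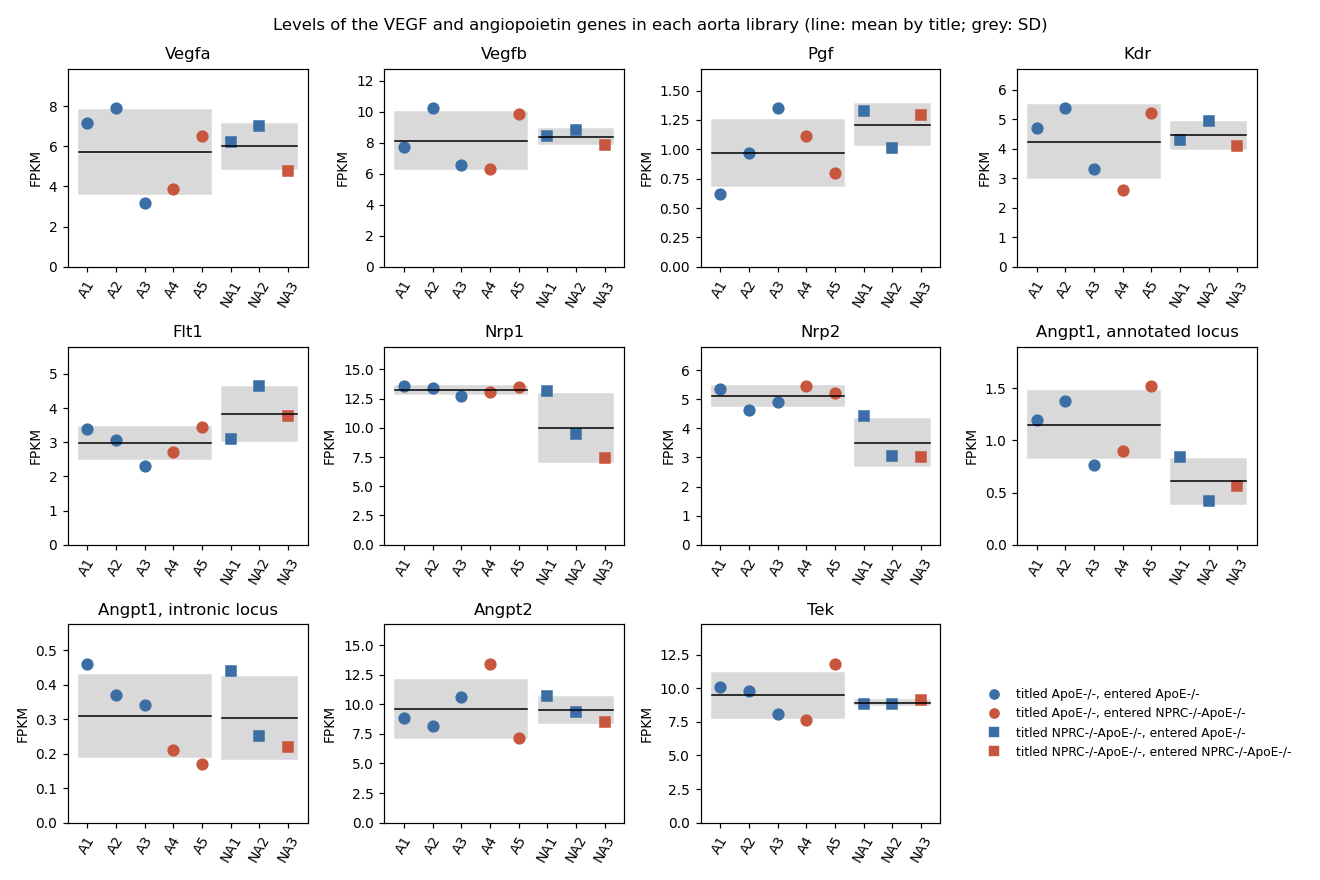
Level of each gene in FPKM (y axis, from 0) in the 8 libraries (x axis: A, titled ApoE-/-; NA, titled NPRC-/-ApoE-/-), with the genotype entry in colour, the title in the marker shape, the mean by title as a line and the SD in grey. Nrp2 was at 4.62 FPKM or more in the 5 titled ApoE-/- libraries and at 4.43 FPKM or less in the 3 titled NPRC-/-ApoE-/- libraries, while the titled groups overlapped in the other panels.

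Members were tested in edgeR's quasi-likelihood fit over the 20506 loci that reached 1 FPKM in 3 or more libraries, and 9 of the 10 passed this filter (Angpt1 did not). A gene was called changed when its fold change was over 2 or under 0.5 and its unadjusted p under 0.05. By title, 0 of the 9 members were called, where 3.47% of all loci were, and 0 members and 0% of all loci had a Benjamini-Hochberg adjusted p under 0.05. At an unadjusted p under 0.05 alone, 3 of the 9 passed, against 13.6% of all loci: Nrp1 and Nrp2 were lower (7.13% of loci) and Flt1 was higher (6.51%). The titled groups did not overlap for 1 of the 9, Nrp2, and for 7.41% of loci. By genotype entry, 0 of the 9 were called (0.463% of loci), 0 had an unadjusted p under 0.05 (1.31%), 0 an adjusted p under 0.05 (0%), and the groups overlapped for all 9 (1.21% of loci did not). The median log2 fold change of the 9 members was 0.07 by title and 0.04 by genotype entry, and that of all loci was -0.006 and -0.004.

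**Figure D2:**
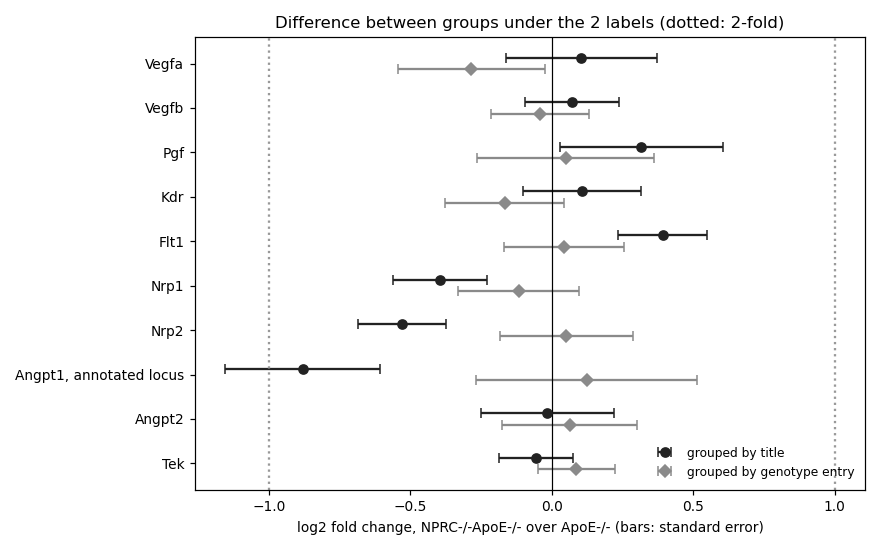
Log2 fold change of NPRC-/-ApoE-/- over ApoE-/- libraries (x axis) with its standard error for the 9 tested members and the annotated locus of Angpt1, grouped by title (black circles) and by genotype entry (grey diamonds). By title, Flt1 stood at 0.39, Nrp1 at -0.39 and Nrp2 at -0.53, and by genotype entry all of them lay between -0.12 and 0.05.

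Vegfa (ENSMUSG00000023951, minus strand, chr17:46016993-46032369) encodes the principal angiogenic ligand of the family. It was at 7.15, 7.90, 3.20, 3.86 and 6.53 FPKM in the titled ApoE-/- 1 to 5 and at 6.24, 6.99 and 4.79 FPKM in the titled NPRC-/-ApoE-/- 1 to 3. The spread lay within the ApoE-/- libraries, where 3 and 4 were the lowest of all 8, and the groups overlapped. The log2 fold change was 0.10 (standard error 0.27) by title, with an adjusted p of 0.883 in edgeR's quasi-likelihood test, and -0.28 (standard error 0.26) by genotype entry, with an adjusted p of 1.00. By genotype entry, leaving out ApoE-/- 3 gave -0.44 with an unadjusted p of 0.0361 in the same test.

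ApoE-/- 3 and 4 were also the libraries lowest in brown adipocyte genes, which mark the fat around the mouse thoracic aorta. The summed level of 7 such genes, Ucp1 among them and none at 0 in any library, was 132 and 250 FPKM there, against 369 to 617 FPKM in the other 6 libraries. By title, 7 of the 7 had a positive log2 fold change, by genotype entry 1 of the 7 had, and 0 had an unadjusted p under 0.05 by either label (13.6 and 1.31% of all loci did). Kdr was lowest in these libraries too, at 3.30 and 2.60 FPKM. The 7 white adipocyte genes did not follow the same order, with a sum of 95.9 FPKM in ApoE-/- 3, the lowest, but 216 FPKM in ApoE-/- 4, above ApoE-/- 1 and NPRC-/-ApoE-/- 2 and 3. ApoE-/- 3 and 4 were also the highest in macrophage genes (2109 and 2221 FPKM) and in fibroblast genes (1344 and 1302 FPKM). The part of these cell types in the Vegfa and Kdr levels was not tested.

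Vegfb (ENSMUSG00000024962, minus strand, chr19:6982473-6987651), a ligand of FLT1, was at 7.75, 10.24, 6.60, 6.30 and 9.84 FPKM in the titled ApoE-/- and at 8.47, 8.82 and 7.86 FPKM in the titled NPRC-/-ApoE-/- libraries. The 3 latter values lay inside the range of the former, and the log2 fold change was 0.07 (standard error 0.17) by title and -0.04 (standard error 0.17) by genotype entry. Pgf (ENSMUSG00000004791, minus strand, chr12:85166635-85177790), the other FLT1 ligand, was at 0.62, 0.97, 1.35, 1.11 and 0.80 FPKM and at 1.33, 1.01 and 1.29 FPKM. Its log2 fold change was 0.32 (standard error 0.29) by title and 0.05 (standard error 0.31) by genotype entry, and the highest and the lowest library were both titled ApoE-/-. Pgf rested on 181 to 403 counts per library, far fewer than Vegfa, with 3983 to 8842.

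Kdr (ENSMUSG00000062960, minus strand, chr5:75932827-75978458) was at 4.71, 5.37, 3.30, 2.60 and 5.21 FPKM in the titled ApoE-/- and at 4.29, 4.95 and 4.10 FPKM in the titled NPRC-/-ApoE-/- libraries. The NPRC-/-ApoE-/- values all lay inside the ApoE-/- range, and the log2 fold change was 0.11 (standard error 0.21) by title and -0.17 (standard error 0.21) by genotype entry. Flt1 (ENSMUSG00000029648, minus strand, chr5:147561604-147726011) was at 3.38, 3.06, 2.31, 2.71 and 3.44 FPKM in the titled ApoE-/- and at 3.08, 4.64 and 3.76 FPKM in the titled NPRC-/-ApoE-/- libraries. NPRC-/-ApoE-/- 2 and 3 stood above all ApoE-/- libraries, while NPRC-/-ApoE-/- 1 lay among them. By title Flt1 was 1.31-fold higher (log2 fold change 0.39, standard error 0.16, unadjusted p = 0.0348, adjusted p = 0.334 in edgeR's quasi-likelihood test), and by genotype entry the log2 fold change was 0.04 (standard error 0.21). Leaving out any one of ApoE-/- 2, 3 or 4 or NPRC-/-ApoE-/- 2 or 3 raised the unadjusted p by title to between 0.0564 and 0.162.

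Within a library, the ratio of Flt1 to Kdr in FPKM was 0.570 to 1.04 in the titled ApoE-/- and 0.718 to 0.937 in the titled NPRC-/-ApoE-/- libraries, with ApoE-/- 4, where Kdr was lowest, at the top. The locus counted for Flt1 began at 147726589, upstream of the annotated start of the gene. The assembly also held 3 loci on the other strand inside Flt1, with 5.24, 14.5 and 2.77% of the counts under its name. The library kit kept strand, but whether the counting used it is not given in the sources used here.

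Nrp2 (ENSMUSG00000025969, plus strand, chr1:62703285-62818695), the co-receptor best known from veins, lymphatic vessels and also macrophages, was at 5.36, 4.62, 4.92, 5.45 and 5.22 FPKM in the titled ApoE-/- and at 4.43, 3.06 and 3.03 FPKM in the titled NPRC-/-ApoE-/- libraries. It was the only tested member whose titled groups did not overlap, although the gap between ApoE-/- 2 and NPRC-/-ApoE-/- 1 was narrow. By title Nrp2 was 0.693-fold (log2 fold change -0.53, standard error 0.15, unadjusted p = 0.00737, adjusted p = 0.267 in edgeR's quasi-likelihood test). By genotype entry the log2 fold change was 0.05 (standard error 0.23). The unadjusted p by title stayed under 0.05 in all 16 alternative fits, at 0.00116 to 0.0411. Gm37121 overlaps Nrp2 on the same strand and Gm29083 on the other, so some of its counts may belong to them.

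Nrp1 (ENSMUSG00000025810, plus strand, chr8:128358604-128503363), which enhances the VEGFA response of KDR, was at 13.56, 13.41, 12.74, 13.10 and 13.48 FPKM in the titled ApoE-/- and at 13.16, 9.44 and 7.39 FPKM in the titled NPRC-/-ApoE-/- libraries. The ApoE-/- libraries were close together, NPRC-/-ApoE-/- 1 lay among them, and only NPRC-/-ApoE-/- 2 and 3 were below. By title Nrp1 was 0.761-fold (log2 fold change -0.39, standard error 0.17, unadjusted p = 0.0423, adjusted p = 0.351 in edgeR's quasi-likelihood test), and by genotype entry the log2 fold change was -0.12 (standard error 0.21). Leaving out any 1 library other than NPRC-/-ApoE-/- 1 raised the unadjusted p by title to between 0.0537 and 0.189, and without NPRC-/-ApoE-/- 3 the log2 fold change was -0.23. The locus also names Mir1903, and it ends at 128462081, before the annotated end of the gene, so its FPKM is that of the shorter assembled locus. The ratio of Nrp1 to Nrp2 in FPKM was 2.40 to 2.90 in the titled ApoE-/- and 2.44 to 3.09 in the titled NPRC-/-ApoE-/- libraries, ranges that overlapped.

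NPRC-/-ApoE-/- 2 and 3, the libraries lowest in both neuropilins, were also lowest in the macrophage genes, at 448 and 344 FPKM summed, and highest in the smooth muscle genes, at 2932 and 3494 FPKM. They were lowest in fibroblast genes too, at 293 and 439 FPKM, and in neuron genes, at 1.70 and 2.02 FPKM. ApoE-/- 5, however, had 715 FPKM of macrophage genes with 5.22 FPKM of Nrp2 and 13.48 FPKM of Nrp1. The part of these cell types in the neuropilin levels was not tested.

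**Figure D3:**
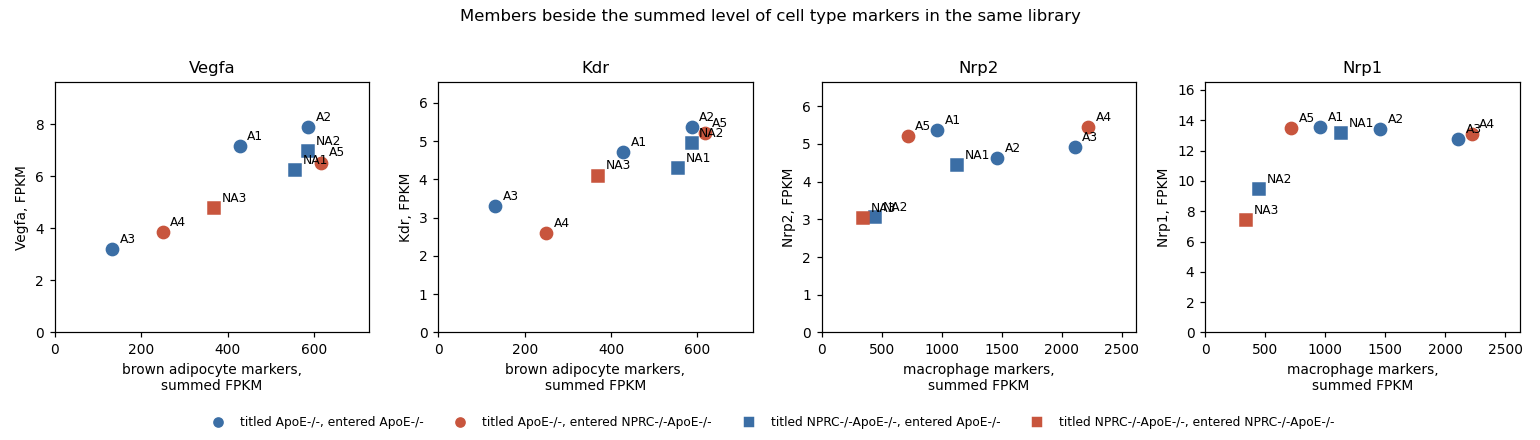
Level of Vegfa and Kdr against the summed level of 7 brown adipocyte genes, and of Nrp2 and Nrp1 against that of 10 macrophage genes, each in FPKM and each point a library (A, titled ApoE-/-; NA, titled NPRC-/-ApoE-/-; colour, genotype entry). These pairs were chosen after the values were seen; ApoE-/- 3 and 4 sit at the low end of the first pair of panels (132 and 250 FPKM of brown adipocyte genes), and NPRC-/-ApoE-/- 2 and 3 at the low end of the second pair (448 and 344 FPKM of macrophage genes).

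Angpt1 (ENSMUSG00000022309, minus strand, chr15:42424723-42676977) was represented by 3 assembled loci. The rule took the one with the most counts (44.3% of those of the 3 loci), which lies on the strand of the gene at chr15:42585662-42620552, wholly inside intron 1 of ENSMUST00000022921, and touched 0 annotated exons. The locus that holds the annotated transcripts touched 11 annotated exons but had 22.6% of the counts, and the third, on the other strand, had 33.1%. The intronic locus was thus not a measure of the annotated Angpt1 mRNA, and both loci on the strand of the gene are given. The choice to add the annotated locus was made after seeing the data.

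**Figure D4:**
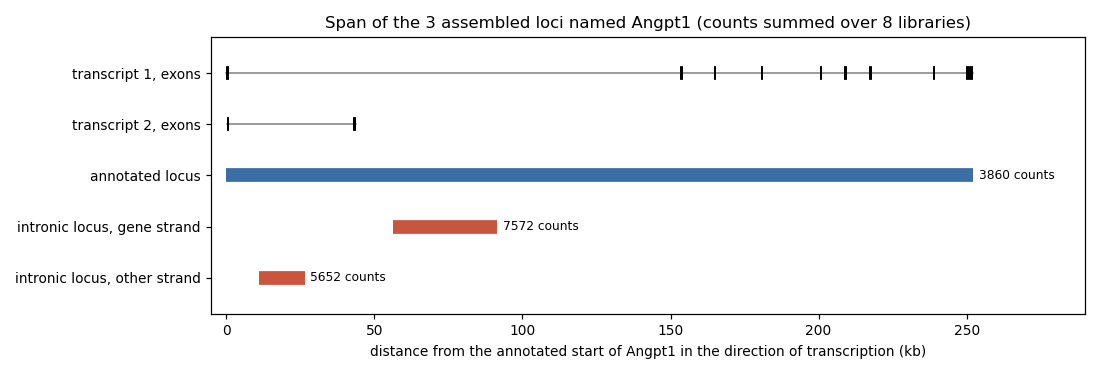
Position of the 3 assembled loci named Angpt1 beside the exons of the 2 annotated transcripts (x axis: distance in kb from the annotated start, in the direction of transcription; exons are drawn at least 0.8 kb wide). The locus taken by the rule (7572 counts over 8 libraries) spans 56.4 to 91.3 kb and meets no exon, and the annotated locus (3860 counts) spans the gene.

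At the intronic locus, the level was 0.46, 0.37, 0.34, 0.21 and 0.17 FPKM in the titled ApoE-/- and 0.44, 0.25 and 0.22 FPKM in the titled NPRC-/-ApoE-/- libraries. It was under 1 FPKM in every library and was therefore not tested, and in a fit that kept such loci the log2 fold change by title was -0.002 (standard error 0.34, adjusted p = 0.999 in edgeR's quasi-likelihood test over 44689 loci). By genotype entry its groups did not overlap: the 3 NPRC-/-ApoE-/- libraries were at 0.17 to 0.22 FPKM and the 5 ApoE-/- libraries at 0.25 to 0.46 FPKM, a difference that was not tested.

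At the annotated locus, Angpt1 was at 1.20, 1.38, 0.76, 0.90 and 1.52 FPKM in the titled ApoE-/- and at 0.84, 0.42 and 0.56 FPKM in the titled NPRC-/-ApoE-/- libraries. NPRC-/-ApoE-/- 2 and 3 were the lowest of the 8, and NPRC-/-ApoE-/- 1 lay inside the ApoE-/- range. By title it was 0.543-fold (log2 fold change -0.88, standard error 0.27), and by genotype entry the log2 fold change was 0.12 (standard error 0.39). The locus passed the filter through 3 libraries that were all titled ApoE-/- (1, 2 and 5), so its lower level in the other titled group is a description, with no test, and the locus is not counted among the members that passed.

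Angpt2 (ENSMUSG00000031465, minus strand, chr8:18690263-18741562) was at 8.82, 8.14, 10.59, 13.39 and 7.17 FPKM in the titled ApoE-/- and at 10.72, 9.36 and 8.46 FPKM in the titled NPRC-/-ApoE-/- libraries. Both the highest library, ApoE-/- 4, and the lowest, ApoE-/- 5, were titled ApoE-/-, and both were entered as NPRC-/-ApoE-/-, so either grouping overlapped. The log2 fold change was -0.015 (standard error 0.24) by title and 0.06 (standard error 0.24) by genotype entry. Angpt2 overlaps Mcph1, which runs on the other strand. The ratio of Angpt2 to the annotated Angpt1 locus in FPKM was 4.72 to 14.9 in the titled ApoE-/- and 12.8 to 22.3 in the titled NPRC-/-ApoE-/- libraries, with ApoE-/- 3 and 4 (13.9 and 14.9) inside the range of the latter.

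Tek (ENSMUSG00000006386, plus strand, chr4:94739289-94874976), the receptor of both angiopoietins, was at 10.13, 9.79, 8.08, 7.66 and 11.80 FPKM in the titled ApoE-/- and at 8.83, 8.80 and 9.16 FPKM in the titled NPRC-/-ApoE-/- libraries. It varied least of all members over the 8 libraries (coefficient of variation 14.02%), and the NPRC-/-ApoE-/- values lay inside the ApoE-/- range. The log2 fold change was -0.06 (standard error 0.13) by title and 0.09 (standard error 0.14) by genotype entry.

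Where title and genotype entry agree (4 libraries), only NPRC-/-ApoE-/- 3 stands against ApoE-/- 1, 2 and 3, and no test was made. On the log2 CPM scale (counts scaled to the library total times edgeR's TMM normalization factor), NPRC-/-ApoE-/- 3 differed from the mean of the others by -0.75 for Nrp1, -0.62 for Nrp2, -0.85 for the annotated and -0.70 for the intronic locus of Angpt1, 0.54 for Pgf and 0.47 for Flt1. The difference was between -0.15 and 0.07 for Vegfa, Vegfb, Kdr, Angpt2 and Tek.

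Members expressed by endothelial cells were also read against the mean log2 CPM of the 12 endothelial genes, in 6 tests per grouping. Other cells may express these members too, as macrophages do Nrp2, so the ratios are not levels per endothelial cell. By title, the ratio of Nrp2 to the endothelial genes differed by -0.48 on the log2 scale (two-sided exact permutation test, p = 0.0714), that of Flt1 by 0.44 (exact p = 0.107) and that of Nrp1 by -0.37 (exact p = 0.143). For Kdr, Tek and Angpt2 the differences were 0.20, 0.01 and 0.09, with exact p-values of 0.429 to 0.929. By genotype entry the exact p-values were 0.464 to 1. The smallest p-value this design can give is 0.0357, and the groups overlapped in all 12 comparisons.

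Beyond the members, 51 other genes of the pathway were found in the table, and 48 of them passed the filter (Sema3e, Sh2d2a and Esm1 did not). By title, 4 of the 48 were called lower (2.39% of all loci) and 2 higher (1.08%), 16 had an unadjusted p under 0.05 (9 lower and 7 higher) and 8 had groups that did not overlap, where 3.47, 13.6 and 7.41% of all loci did. None had an adjusted p under 0.05 in edgeR's quasi-likelihood test, the smallest being 0.216. DESeq2's test, an alternative fit, gave 644 of all loci an adjusted p under 0.05. In it the unadjusted p was 2.95e-07 for Aplnr and 0.00134 for Sema3g, and adjusted values of the pathway genes are not given here. The median log2 fold change of the 48 was -0.19 by title and -0.02 by genotype entry, and by genotype entry 0 of the 48 had an unadjusted p under 0.05. The list was drawn up with earlier results of these data known.

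Among 11 other ligands, 1 was lower and 4 were higher at an unadjusted p under 0.05 (7.13 and 6.51% of all loci were). Most of them were class 3 semaphorins, the ligands that share the neuropilins with VEGF. Sema3c lay between 9.04 and 13.83 FPKM for the title ApoE-/- and between 11.01 and 17.46 FPKM for NPRC-/-ApoE-/- (log2 fold change 0.51, standard error 0.18), and Sema3f, a ligand of NRP2, had 9.05 to 11.08 and 12.18 to 15.05 FPKM (0.41, standard error 0.15). Sema3a, a ligand of NRP1, was higher by 0.47 (standard error 0.20) on the log2 scale and Vegfd, a ligand of FLT4, by 0.31 (standard error 0.11). Sema3g went the other way, with 4.13 to 5.36 and 2.70 to 3.89 FPKM (-0.53, standard error 0.15). The titled groups did not overlap for Sema3f, Vegfd and Sema3g (7.41% of all loci did not). Sema3a reached the filter's 1 FPKM only in ApoE-/- 5 (1.32) and in the titled NPRC-/-ApoE-/- libraries (1.10 to 1.69). It thus passed the filter mainly through the titled group where it was higher, which limits its test. By genotype entry the log2 fold changes were 0.18 for Sema3c, 0.13 for Sema3f, -0.015 for Sema3a, 0.025 for Vegfd and -0.06 for Sema3g, with standard errors of 0.16 to 0.27.

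Among 11 other receptors, 2 passed at an unadjusted p under 0.05, where 13.6% of all loci did. Aplnr, the apelin receptor of growing endothelium, was at 3.57, 1.76, 2.98, 1.75 and 2.80 FPKM in the titled ApoE-/- and at 1.13, 0.52 and 0.41 FPKM in the titled NPRC-/-ApoE-/- libraries. The groups did not overlap, and it was 1 of the 4 genes called lower (log2 fold change -1.88, standard error 0.38, adjusted p = 0.216 in edgeR's quasi-likelihood test). Aplnr reached the filter's 1 FPKM in every titled ApoE-/- library but otherwise only in NPRC-/-ApoE-/- 1. It thus passed the filter mainly through the titled group where it was higher, which limits its test. It was called by title in all 16 alternative fits, which reuse the same libraries and include a fit with no filter. By genotype entry its log2 fold change was -0.28 (standard error 0.68). Plxnd1, a semaphorin receptor of endothelial cells, was lower by title at -0.53 (standard error 0.19), and by genotype entry its value was -0.10 (standard error 0.26). Tie1, the orphan partner of TEK, had a log2 fold change of -0.19 (standard error 0.18) and Flt4, the VEGFC receptor, 0.06 (standard error 0.22).

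Of 6 tested genes that VEGF signalling induces, all had a negative log2 fold change by title, where 10434 of all 20506 loci tested had. Of the 6, 3 were called lower, where 2.39% of all loci were. These were the immediate early transcription factors Egr3 (log2 fold change -1.21, standard error 0.53) and Nr4a1 (-1.16, standard error 0.51) and the phosphatase Dusp5 (-1.001, standard error 0.43), whose titled groups overlapped. The unadjusted p of Nr4a1 was 0.0499 in edgeR's quasi-likelihood test. Of these 3, 0 were called without ApoE-/- 2, without ApoE-/- 3 or without NPRC-/-ApoE-/- 2, and 1 was called without ApoE-/- 4, NPRC-/-ApoE-/- 1 or NPRC-/-ApoE-/- 3. By genotype entry the values were -0.59 for Egr3, -0.64 for Nr4a1 and -0.13 for Dusp5, with standard errors of 0.53 to 0.62. Esm1, also a gene that VEGF signalling induces, was below the filter, was not tested and went the other way by title. It was at 0.24 to 0.80 FPKM (median 0.71) for ApoE-/- and at 0.50 to 1.12 FPKM (median 0.84) for NPRC-/-ApoE-/-. Egr3 ranged from 1.24 to 6.44 FPKM and Nr4a1 from 5.92 to 20.04 FPKM within the titled ApoE-/- libraries alone. VEGF signalling itself was not measured, and the cause of the lower values was not tested. All 6 inhibitors had negative values by title too. Of these, Vash1 (-0.67, standard error 0.21) and Spry2 (-0.62, standard error 0.26) had an unadjusted p under 0.05, where 7.13% of all loci were lower at that p. Their values by genotype entry were 0.007 and -0.18. Thbs1 varied from 49.0 to 206 FPKM among the titled ApoE-/- libraries.

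Of 7 genes of oxygen sensing, which controls Vegfa transcription, 3 had an unadjusted p under 0.05, where 13.6% of all loci did. Their smallest adjusted p was 0.277 in edgeR's quasi-likelihood test. Hif1a was lower (-0.55, standard error 0.22). The prolyl hydroxylase Egln1, which marks HIF1A for degradation, was higher (0.45, standard error 0.14). Hif3a was higher too (1.03, standard error 0.34) and was called, where 1.08% of all loci were called higher. The others did not pass: Epas1 (-0.18, standard error 0.15), Arnt (-0.39, standard error 0.22), Vhl (-0.19, standard error 0.21) and Egln3 (0.36, standard error 0.28). Hif3a was at 0.44 to 1.01 and 0.82 to 1.45 FPKM. Of 7 signalling genes, 1 passed (13.6% of all loci did). This was the KDR adaptor Shb, called higher (1.09, standard error 0.40), at 0.49 to 1.24 FPKM for the title ApoE-/- and 0.73, 2.22 and 1.69 FPKM in the titled NPRC-/-ApoE-/- libraries. NPRC-/-ApoE-/- 1 thus lay inside the ApoE-/- range for Shb. Shb reached the filter's 1 FPKM only in ApoE-/- 4 (1.24) and NPRC-/-ApoE-/- 2 and 3. Hif3a reached it only in ApoE-/- 3 (1.01) and NPRC-/-ApoE-/- 1 and 3 (1.33 and 1.45). Both thus passed the filter mainly through the titled group where they were higher, which limits their tests. With no filter, both were called too. Of the 8 fits that leave out 1 library, Shb was called in 5 (not without ApoE-/- 3, NPRC-/-ApoE-/- 2 or NPRC-/-ApoE-/- 3) and Hif3a in 2 (only without ApoE-/- 3 or NPRC-/-ApoE-/- 2). By genotype entry the log2 fold changes were -0.03 for Hif1a, -0.03 for Egln1, -0.04 for Hif3a and 0.45 (standard error 0.53) for Shb. Without NPRC-/-ApoE-/- 2 or without NPRC-/-ApoE-/- 3, 6 of the 48 had an unadjusted p under 0.05 instead of 16.

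**Figure D5:**
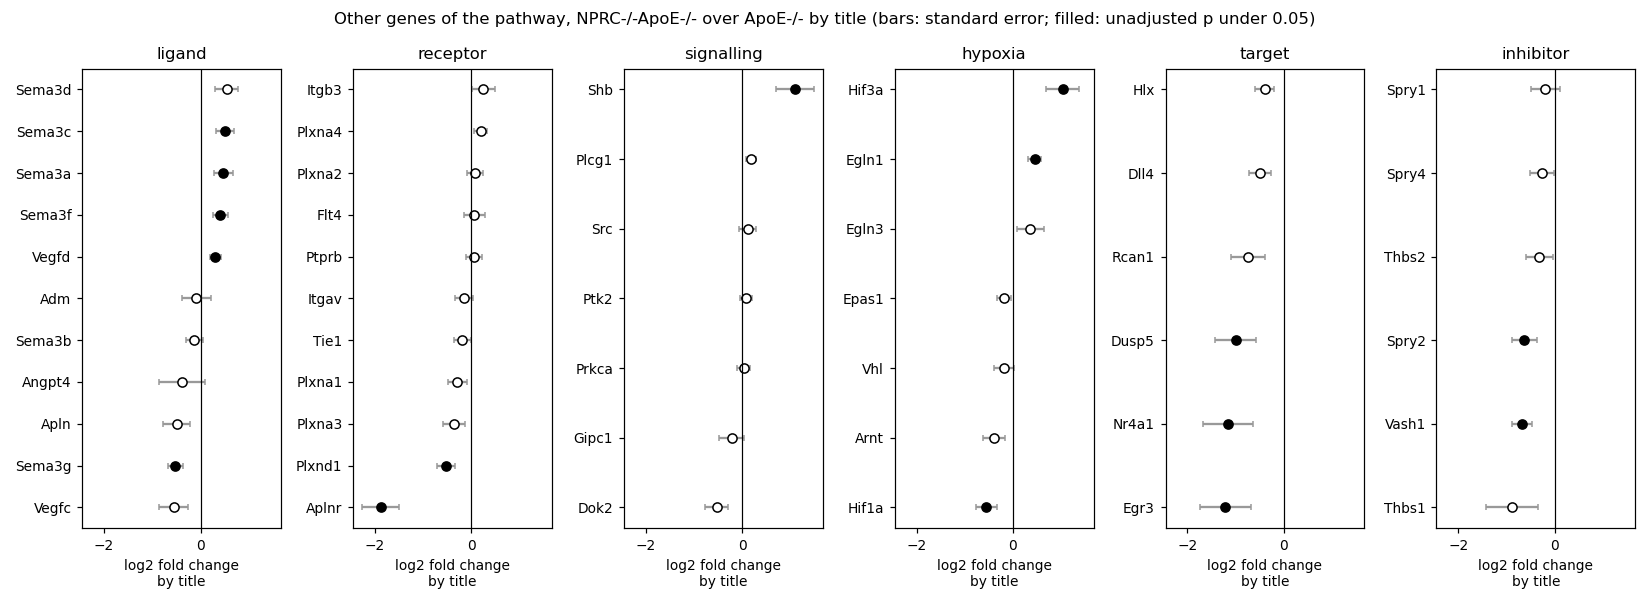
Log2 fold change by title (x axis, with its standard error) of the 48 tested genes of the pathway that are not members, grouped by role; filled points had an unadjusted p under 0.05. Aplnr stands lowest at -1.88, and Shb (1.09) and Hif3a (1.03) lie above the others. All 6 tested target genes and all 6 inhibitors lie below 0, where 10434 of all 20506 loci tested did. The untested target gene Esm1 is not shown.

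For each member, the 2 genes whose log2 CPM followed it most closely over the 8 libraries were sought among 3759 loci with a single name and a mean of at least 5 FPKM. Vegfa was followed by Gys1 (Pearson's r = 0.954) and Adrb3, the beta-3 adrenergic receptor of adipocytes (r = 0.952), and Vegfb by Acat1 and Gfm1, both mitochondrial (r = 0.967 for each). For Pgf these were Jam3 (0.980) and Yaf2 (0.964), for Kdr Gm43359 (0.940) and Cnn3 (0.932), and for Flt1 Zbtb20 (0.974) and Gm48870 (0.958). Nrp1 was followed by Tmem170b (0.979) and Plekhf2 (0.973), Nrp2 by Kpna3 (0.975) and Ireb2 (0.971), Angpt2 by Spop (0.967) and Psmd11 (0.963), and Tek by Cox5b (0.925) and Cavin2 (0.914). The annotated locus of Angpt1 was most like Sord (0.921) and Ube2l6 (0.890), and the intronic one like Pcyox1 (0.836) and Cdc42 (0.820). These are the highest of 3759 values over the same 8 libraries, which share their cell mixture, and are given as a description.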

How the data were processed

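RNA-seq of whole aortas was analysed in 8 libraries. The authors trimmed reads (cutadapt 1.9, per the processing notes), mapped them with HISAT2 to GRCm38, assembled loci with StringTie, and deposited raw counts for every locus and library. The deposited FPKM values were normalized by the authors to transcript length and mapped fragments. How StringTie's loci were counted is not given in the sources used here.

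Groups followed the title, and again the genotype entry. The 20506 loci that reached 1 FPKM in 3 or more libraries were tested in R 4.3.3 with edgeR 4.0.16 (TMM, quasi-likelihood test, Benjamini-Hochberg adjustment). The fit was checked on simulated data that varied less between libraries than these data. That check therefore does not show how readily the fit finds a change here. In these data the biological coefficient of variation was 0.327, and the number of libraries limits the precision. Exact permutation tests used scipy 1.17.1, and log2 CPM a prior count of 2. For genes other than the members, the locus with annotated transcripts and most counts was used. Named were all members, pathway genes with an unadjusted p under 0.05 by either label, marker lists, and the 2 genes most like each member. Tie1, Flt4, Thbs1, Epas1, Arnt, Vhl, Egln3 and the untested genes were added after their values were seen. The members and lists were chosen with earlier results of these data known. Alternatives were DESeq2 1.42.0 and its size factors, limma 3.58.1 on log2(FPKM + 1) and log2(FPKM + 0.1), no filter, summed loci, a replicate block, Pecam1 alone as the endothelial level, and each library left out.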

Additional observations from a re-analysis of the deposited data

Results flagged for a closer look

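Among 66 sets of values (members, named pathway genes and 6 members read against the endothelial genes, each in the groups of 5 libraries), 5 held a library that stood apart from its group by Dixon's test, where chance gives about 1 in 20, or 3.3. Values are log2 CPM. By genotype entry, Vegfa was lowest in ApoE-/- 3 at 5.70, with the next library at 6.54. By genotype entry, too, NPRC-/-ApoE-/- 2, which is titled otherwise, stood apart from the other libraries entered as ApoE-/- for 3 genes. It was lowest for Nrp1 at 7.59 (next 8.06) and highest for Sema3c at 7.22 (next 6.54) and Shb at 7.02 (next 5.40). By title, Hif3a was highest among the ApoE-/- libraries in ApoE-/- 3 at 3.13 (next 2.05).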

How the results depend on the processing

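By title, the direction and the side of an unadjusted p of 0.05 held in every alternative for Nrp2, Vegfb and Pgf, and the direction for Flt1 and Nrp1. No member had an adjusted p under 0.05 in any fit. The smallest was 0.0541 with DESeq2, which gave 644 loci an adjusted p under 0.05, and 0.0675 without NPRC-/-ApoE-/- 1. The replicate numbers did not pair the libraries (correlations of -0.31, -0.11 and 0.007), and 0 of the 3 correlated best with its own number. In the 6 libraries numbered 1 to 3, with the replicate block 1 member and 10 pathway genes had an unadjusted p under 0.05, and without the block 1 member and 16 pathway genes did, against 3 and 16 in all 8, and the block moved calls over all loci from 917 to 800. With limma at either pseudocount, 1 pathway gene was called instead of 6.

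Leaving out 1 library at a time gave 1 to 3 members and 6 to 22 pathway genes with an unadjusted p under 0.05, and 2 to 6 pathway genes called, by title. The members fell to 1 without ApoE-/- 2, 3 or 4 or NPRC-/-ApoE-/- 2 or 3. By genotype entry these counts were 0 to 1, 0 to 2 and 0 to 1. Log2 fold changes by title then ran from -0.029 to 0.24 for Vegfa, -0.013 to 0.20 for Kdr, -0.12 to 0.16 for Angpt2 and -0.10 to 0.012 for Tek. By genotype entry they ran from -0.15 to 0.082 for Vegfb, -0.14 to 0.26 for Pgf, -0.34 to 0.045 for Kdr, -0.097 to 0.21 for Flt1, -0.27 to 0.098 for Nrp1, -0.13 to 0.26 for Nrp2, -0.28 to 0.28 for Angpt2, -0.028 to 0.20 for Tek and -0.23 to 0.39 for the annotated locus of Angpt1. Against the endothelial genes, they ran by title from -0.041 to 0.077 for Tek and -0.022 to 0.24 for Angpt2, and by genotype entry from -0.36 to 0.06 for Kdr, -0.084 to 0.21 for Flt1, -0.30 to 0.092 for Nrp1, -0.13 to 0.26 for Nrp2, -0.032 to 0.20 for Tek and -0.27 to 0.26 for Angpt2.

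Angpt2 by title also turned to 0.009 and 0.012 with limma (pseudocounts of 1 and 0.1), 0.073 with the replicate block and 0.058 in those 6 libraries with no block, and by genotype entry to -0.016 with limma. Against Pecam1 alone, the values by title were -0.14 for Tek and -0.06 for Angpt2, and by genotype entry -0.069 for Flt1, -0.092 for Nrp2, -0.053 for Tek and -0.12 for Angpt2. The cause of these changes was not tested. Depth limits the Angpt1 loci and Pgf most.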

Other observations

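The assembly placed loci under the names of members beyond those analysed above, in all 17 loci for 10 genes. One on the other strand inside Nrp1 was at 1.20 to 4.77 FPKM over the 8 libraries, and one without a strand beside Vegfb was at 0.24 to 0.81 FPKM. The 3 loci on the other strand inside Flt1 were at 0.49 to 1.07, 0.47 to 1.16 and 0.77 to 2.42 FPKM. They touched 0 annotated exons of these genes.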
